A study of Rosa rugosa with 9 samples.

Results

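The regulators of Rosa rugosa roots described here are Rru07G008430, annotated as the transcription factor bHLH157, Rru06G057100, annotated as dehydration-responsive element-binding protein 3 (DREB3), and Rru01G018140, annotated as cyclic nucleotide-gated ion channel 1 (CNGC1). They are 3 of the 47983 genes in the table. They were chosen by their read counts, which were highest at the moderate humic acid level, so their levels and differences are given as a description with no test. All 3 had enough counts to enter the set of 25260 genes that were tested.

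The 3 annotations belong to different steps of plant signalling. In Arabidopsis, bHLH157 is a relative of LONESOME HIGHWAY (LHW), a basic helix-loop-helix factor that pairs with TMO5-type factors to drive cell divisions in the root vascular tissue through local cytokinin. DREB3 belongs to the AP2 factors that bind the dehydration-responsive element, a promoter sequence of genes induced by drought and cold. Cyclic nucleotide-gated channels sit in plant membranes, let cations including calcium into the cytosol and are regulated by cyclic nucleotides and calmodulin. The deposited annotation carries an AP2 domain and the name "transcription factor tiny" for the DREB3 gene, an ion transport domain and the plant-pathogen interaction pathway for the CNGC1 gene, and a bHLH-MYC N-terminal domain for the bHLH157 gene. No sequence is shown for any of them.

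The study asked how rose roots respond when humic acid, a fraction of decomposed organic matter used as a soil amendment, takes the place of phosphate fertilizer. Year-old plants of the cultivar 'Zizhi' stood in sand in a greenhouse and each pot was given 200 ml of Hoagland's solution every week for 37 weeks. In CK the whole phosphate dose was given as 0.092 g NH4H2PO4. Plants of HA1 were given 0.0552 g NH4H2PO4 (60% of the phosphate) with 0.0368 g humic acid in place of the other 40%. Plants of HA2 were given 0.0368 g NH4H2PO4 (40%) with 0.0552 g humic acid in place of 60%. All groups were therefore fed phosphate and differed in humic acid and in the ammonium phosphate salt at once, so effects of humic acid, phosphate and ammonium cannot be told apart. RNA from tender roots was sequenced in 3 libraries per group. Whether the replicates are separate plants is not stated in the labels. The spread behind each p-value is therefore that of these libraries and may be technical.

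Total counts per library ran from 33847262 to 42988605. Levels are TMM-scaled CPM (counts relative to the library total), and 3 counts in a library correspond to 0.0698 to 0.0886 CPM before that scaling. SHORT-ROOT (Rru02G022540), a root patterning factor, had mean levels in CK, HA1 and HA2 of 31.4, 28.5 and 34.4 CPM, while the root stem cell factor WOX5 (Rru01G045550) was near 0 at 0.0644, 0.485 and 0.360 CPM. On the first principal component, which held 43.9% of the variance, the HA1 libraries lay from 67.7 to 70.4 and the CK libraries from -131 to -42.3, while HA2 replicate 3 at -45.8 lay within the CK range and the other HA2 libraries lay at 66.3 and 39.7. The summed level of the 32 tested of 59 green tissue genes ran from 120 to 234 CPM in CK, 86.8 to 118 in HA1 and 54.3 to 152 in HA2, with 7 of the 59 at 0 in every library. Much of that sum came from 1 gene for the small chain of ribulose bisphosphate carboxylase (Rru04G014250). It was read at 72.6, 163 and 187 CPM in the CK libraries, with means of 71.1 in HA1 and 76.8 in HA2. The part of the green tissue genes in the results below was not tested.

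The bHLH157 gene was read at 8.17, 10.6 and 9.97 CPM in CK replicates 1 to 3, 23.5, 17.7 and 21.7 CPM in the HA1 libraries and 7.80, 5.16 and 4.80 CPM in the HA2 libraries. The 3 groups did not overlap: every HA1 library lay above every CK library, and every CK library above every HA2 library. Group means were 9.57 ± 1.25 in CK, 21.0 ± 3.01 in HA1 and 5.92 ± 1.64 in HA2 (SD, n = 3). The fitted log2 fold change was 1.13 ± 0.23 (SE) from CK to HA1, a 2.19-fold higher level, and -0.69 ± 0.23 from CK to HA2. From HA1 to HA2 it was -1.83 ± 0.23, a 3.55-fold lower level. Of all genes tested, 55 (0.218%) had the same order of groups with no overlap, and the bHLH157 gene was the only 1 of the 3 regulators among them. In bulk RNA, fewer cells of a type and less RNA per cell cannot be told apart, here and in all values that follow.

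The DREB3 gene was read at 22.5, 36.1 and 42.3 CPM in the CK libraries, 82.7, 69.5 and 81.4 CPM in the HA1 libraries and 24.7, 18.4 and 20.0 CPM in the HA2 libraries. HA1 was high in all its libraries. CK and HA2 overlapped, because CK replicate 1 lay below HA2 replicate 1. Means were 33.6 ± 10.1 in CK, 77.9 ± 7.26 in HA1 and 21.0 ± 3.31 in HA2 (SD, n = 3). The log2 fold change was 1.21 ± 0.24 (SE) from CK to HA1, or 2.32-fold higher, and -1.89 ± 0.25 from HA1 to HA2, or 3.70-fold lower. From CK to HA2 it was -0.68 ± 0.24. In the authors' FPKM, which also divide by gene length, the lowest CK library at 31.3 lay above the highest HA2 library at 27.4, so the overlap between CK and HA2 depended on the scaling.

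The CNGC1 gene was read at 17.8, 21.6 and 23.6 CPM in the CK libraries, 55.2, 56.7 and 66.1 CPM in the HA1 libraries and 27.9, 25.3 and 22.2 CPM in the HA2 libraries. Again the HA1 libraries stood above the other 6, while CK and HA2 overlapped. Means were 21.0 ± 2.94 in CK, 59.3 ± 5.93 in HA1 and 25.1 ± 2.83 in HA2 (SD, n = 3). The log2 fold change was 1.50 ± 0.17 (SE) from CK to HA1, a 2.83-fold higher level, and -1.24 ± 0.17 from HA1 to HA2, a 2.36-fold lower level. From CK to HA2 it was 0.26 ± 0.17. When libraries were scaled by total count alone, a setting added after the data were seen, that last difference was -0.05, so its sign depends on the scaling.

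**Figure D1:**
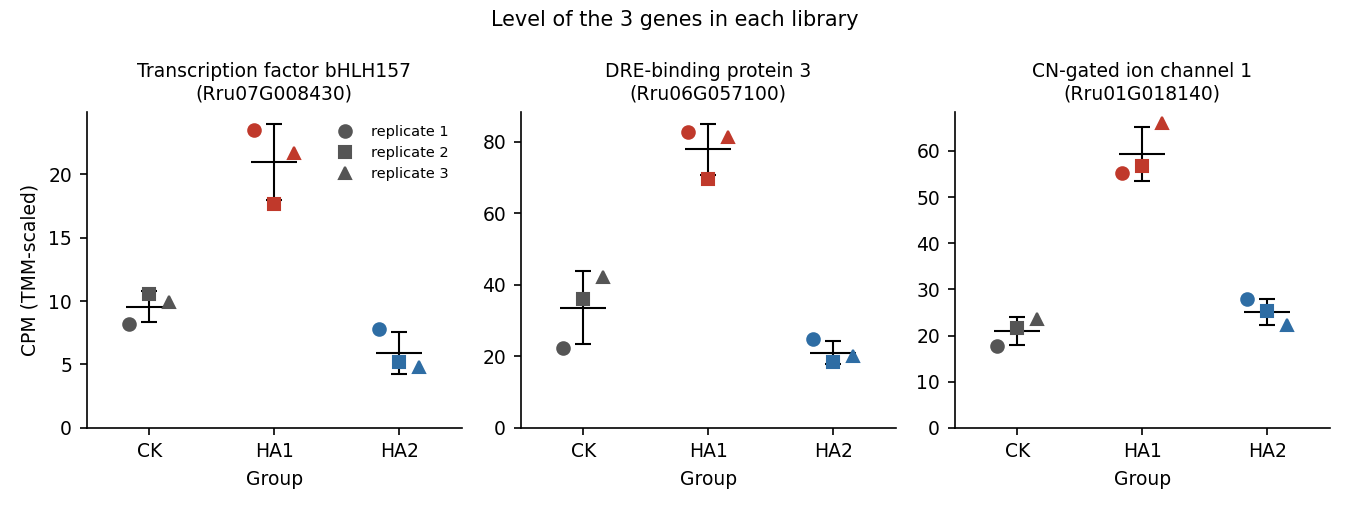
Level of each of the 3 regulators in CPM scaled by TMM (vertical axis) by group (horizontal axis), with 1 symbol per library shaped by replicate number and a bar for the mean and SD of 3 libraries. In each panel the 3 HA1 libraries lie above the other 6, and HA2 lies below CK without overlap for bHLH157 but not for the other two.

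The order of levels was HA1, CK, HA2 for bHLH157 and DREB3 and HA1, HA2, CK for CNGC1, and the last pair in the order overlapped for DREB3 and for CNGC1. All 3 had their HA1 libraries above the other 6, a pattern held by 2585 genes or 10.2% of all genes tested, and by 1705 with libraries scaled by total count. Taken by comparison, all 3 had HA1 above CK (22.7% of genes tested) and HA2 below HA1 (14.1%) with no overlap, and 1 had HA2 below CK (10.8%). This pattern is what the genes were chosen for. The same pattern with CK on top was held by 1831 genes (7.25%) and with HA2 on top by 284 (1.12%). Within groups the 3 genes shared the position of 2 libraries: CK replicate 1 was the lowest CK library and HA2 replicate 1 the highest HA2 library for each. Without CK replicate 1 the log2 fold changes from CK to HA1 were 1.01 for bHLH157, 0.97 for DREB3 and 1.37 for CNGC1. Without HA2 replicate 3, which lay near CK on the first principal component, those from CK to HA2 were -0.56, -0.64 and 0.34. The pooled within-group SD of log2 CPM was 0.27 for bHLH157, 0.31 for DREB3 and 0.17 for CNGC1.

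Over the 9 libraries, Pearson's r of log2 CPM was 0.97 between bHLH157 and DREB3, 0.83 between bHLH157 and CNGC1 and 0.87 between DREB3 and CNGC1. With group means removed it was 0.73, 0.66 and 0.78. These values describe genes chosen for 1 pattern in libraries that share depth and scaling, and they carry no test.

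Where the 3 regulators stood among all genes is shown by the plot of differences over all genes. From CK to HA1, 88.8% of genes tested had a lower log2 fold change than bHLH157, 90.0% a lower one than DREB3 and 93.3% a lower one than CNGC1, so 2832, 2524 and 1701 genes had a higher one. From HA1 to HA2 they lay nearer the end of the distribution: 0.428% of genes had a lower log2 fold change than bHLH157, 0.364% a lower one than DREB3 and 1.96% a lower one than CNGC1. The authors' deposited table gave log2 fold changes from CK to HA1 of 1.13 for bHLH157, 1.21 for DREB3 and 1.50 for CNGC1, and from HA1 to HA2 of -1.80, -1.86 and -1.21.

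**Figure D2:**
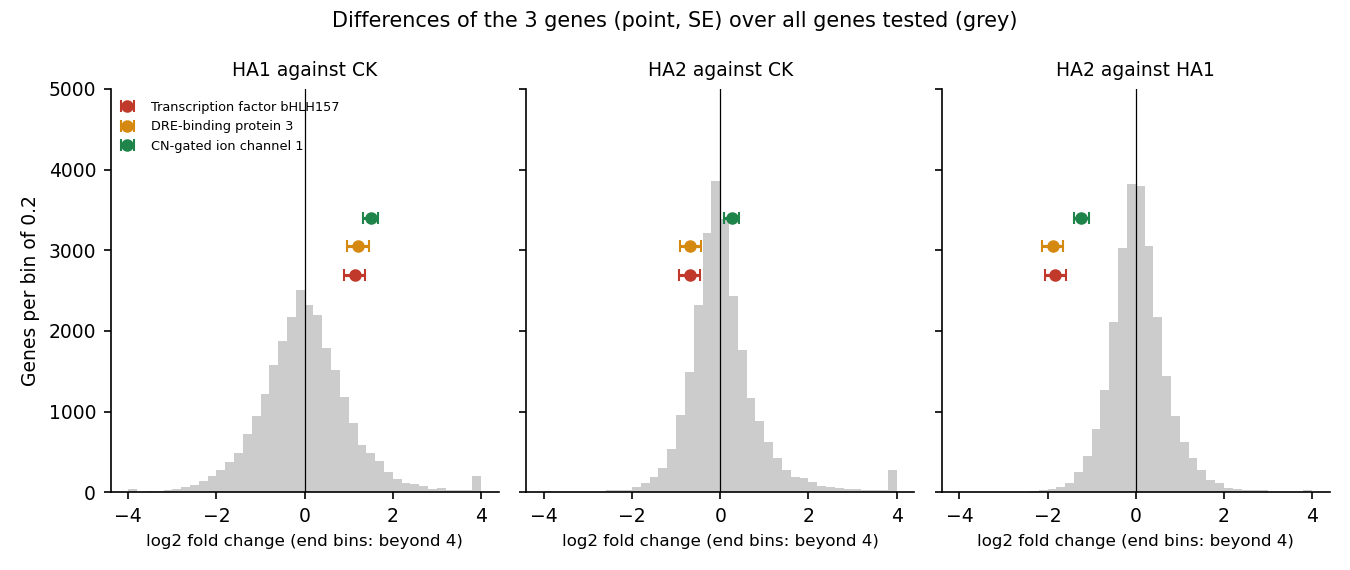
Fitted log2 fold changes (horizontal axis) of the 3 regulators, as points with SE at arbitrary heights, over the histogram of all 25260 genes tested (vertical axis, genes per bin). The 3 genes lie right of most genes in HA1 against CK, from 1.13 to 1.50, and near the left end in HA2 against HA1, from -1.89 to -1.24.

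On the per-length scale, the DREB3 gene had the highest level of the 3 regulators in every group. Mean FPKM in CK, HA1 and HA2 was 45.1, 85.0 and 23.2 for DREB3, 10.3, 23.5 and 10.1 for CNGC1, and 3.01, 5.39 and 1.53 for bHLH157. By mean FPKM, bHLH157 ranked 49th of 63 bHLH genes in CK, 36th in HA1 and 49th in HA2. DREB3 ranked 6th of 11 DREB and CBF genes in CK, 3rd in HA1 and 6th in HA2. CNGC1 ranked 11th of 57 cyclic nucleotide-gated channel genes in CK, 6th in HA1 and 10th in HA2.

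The other genes of each family and pathway were counted with edgeR's quasi-likelihood test and Benjamini-Hochberg adjustment over all 25260 genes, with the 3 regulators left out. In HA1 against CK, 5355 genes (21.2%) passed a threshold of 0.05, of which 2761 (10.9%) rose and 2594 (10.3%) fell. An unadjusted p under 0.05 was reached by 38.4%, DESeq2 called 30.5%, and in 22.3% every HA1 library lay below every CK library. Without CK replicate 1, 0 genes passed with edgeR, so no call named below is kept without that library. The count was 666 without CK replicate 3, and leaving out 1 HA1 library lowered it to 1675, 823 and 2422 for replicates 1, 2 and 3. In HA2 against CK 1 gene passed with edgeR (0.00396%), 5233 (20.7%) had an unadjusted p under 0.05, and DESeq2 called 2181 (9.18%). In HA2 against HA1 0 genes passed with edgeR, 4069 (16.1%) had an unadjusted p under 0.05, and DESeq2 called 944 (4.2%). Leaving out 1 library moved the edgeR count for HA2 against CK to as many as 1834 without HA2 replicate 3 and 1421 without CK replicate 2. With all 9 libraries no gene of the lists below passed in either HA2 comparison with edgeR. For HA2 against CK, 47 list genes were higher and 25 lower without HA2 replicate 3, 37 and 14 without CK replicate 2, and 67 and 21 with DESeq2, which also called 13 and 8 for HA2 against HA1. The rises and falls below are those from HA1 against CK with all libraries. Scaled by total count, the median log2 fold change of all genes was -0.31 in place of -0.02, and the calls were 1578 higher and 4647 lower.

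Among bHLH factors other than bHLH157, 62 of 84 were tested, 10 rose, 12 fell and 40 did not pass. That is 35.5% called, with a median log2 fold change of 0.01 beside -0.02 over all genes. Under total count scaling, 8 were higher and 17 lower. The 3 genes with the lowest p all fell: bHLH68 (Rru02G047880) by 1.76 ± 0.28 on the log2 scale, bHLH93 (Rru02G024250) by 3.12 ± 0.49 and bHLH30 (Rru04G046650) by 1.78 ± 0.29 (SE, edgeR adjusted p = 0.0103, 0.0103 and 0.0104). No other gene in the table carries the description bHLH157. In this list 3 genes (4.84%) had their HA1 libraries above the other 6, beside 10.2% of all genes tested.

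LHW itself (Rru05G041250), the best known relative of bHLH157, was lower in HA1. It was read at 116, 85.4 and 143 CPM in the CK libraries, 35.6, 40.3 and 34.3 CPM in the HA1 libraries and 49.9, 48.6 and 104 CPM in the HA2 libraries. HA1 lay below both other groups, and HA2 replicate 3 lay within the CK range. LHW fell from CK to HA1 by 1.65 ± 0.32 on the log2 scale (SE, edgeR quasi-likelihood test, adjusted p = 0.0148), and the call was also lost without CK replicate 3 or HA1 replicate 1 or 2. Another LHW relative, bHLH155 (Rru06G040040), had means of 95.5 ± 13.7 CPM in CK and 50.7 ± 7.01 in HA1 (SD, n = 3) and did not pass (edgeR adjusted p = 0.0803).

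The partners of LHW moved in both directions. Of the genes annotated as bHLH30, a TMO5-type factor, Rru04G046650 fell from 2.94 ± 0.806 to 0.852 ± 0.107 CPM, while Rru05G009140 rose from 11.2 ± 2.02 to 46.4 ± 11.5 CPM (SD, n = 3), by 2.05 ± 0.48 on the log2 scale (SE, edgeR adjusted p = 0.0229), a call also lost without CK replicate 3 or HA1 replicate 2 or 3. In HA2 that gene was at 79.9, 55.1 and 16.7 CPM, a spread wider than in the other groups. The TMO5-type bHLH106 (Rru05G045340) had a log2 fold change of 0.29 ± 0.31 and did not pass.

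The list of LHW, TMO5-type and cytokinin genes held 21 tested genes of 28, of which 2 rose, 5 fell and 14 did not pass (33.3% called, median log2 fold change -0.25). With total count scaling 2 were higher and 10 lower. Histidine phosphotransfer proteins pass the cytokinin signal from receptors to the nucleus. Of the genes annotated as histidine-containing phosphotransfer protein 1, 2 fell: Rru03G005130 by 1.32 ± 0.19 (adjusted p = 0.00973) and Rru06G043370 by 1.12 ± 0.26 on the log2 scale (SE, edgeR adjusted p = 0.0232). Another gene with that annotation, Rru04G032140, had a CK mean of 93.3 CPM beside their 18.3 and 6.99. It did not pass (log2 fold change -0.34 ± 0.21, SE, edgeR adjusted p = 0.265). Of the cytokinin dehydrogenases, which degrade the hormone, dehydrogenase 6 (Rru01G005110) rose by 1.19 ± 0.25 and dehydrogenase 7 (Rru06G062160) fell by 1.30 ± 0.38 on the log2 scale (SE, edgeR adjusted p = 0.0177 and 0.0414). Of these 4 calls, only that of Rru03G005130 was kept without CK replicate 3 or HA1 replicate 2, and those of Rru06G043370 and dehydrogenase 6 were also lost without HA1 replicate 1. The dehydrogenase 7 call was lost without HA1 replicate 1 or HA2 replicate 1 or 2 as well. Dehydrogenases 5 (Rru06G053010) and 3 (Rru02G008860) were higher by 1.545 ± 0.55 and 1.034 ± 0.64 on the log2 scale. They did not pass (SE, edgeR adjusted p = 0.0729 and 0.265). No LOG gene, encoding the enzyme that releases active cytokinin, passed. Their differences went both ways. LOG3 (Rru03G018340) came nearest, lower by 1.59 ± 0.51 on the log2 scale (SE, edgeR adjusted p = 0.0525). LOG5 (Rru06G032050) was higher by 1.68 ± 0.80 (SE, edgeR adjusted p = 0.158). In this list 1 gene (4.76%) had its HA1 libraries above the other 6, beside 10.2% of all genes tested.

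Of the DREB and CBF factors other than the described DREB3 gene, 10 of 14 were tested, 2 rose, 3 fell and 5 did not pass. The list is small, so its 50.0% called stands for 5 genes, and its median log2 fold change was -0.48. Scaled by total count, 0 were higher and 3 lower, and without CK replicate 3 or any 1 HA1 library none was called. Without HA2 replicate 2, 3 were called. DREB2A, a drought-responsive factor, went both ways: Rru01G046690 fell by 1.17 ± 0.31 and Rru02G067800 rose by 0.79 ± 0.22 on the log2 scale (SE, edgeR adjusted p = 0.0302 and 0.0364). The CBF-type genes annotated as DREB1D fell, Rru07G020040 by 2.34 ± 0.62 and Rru07G020030 by 1.98 ± 0.62 on the log2 scale (SE, edgeR adjusted p = 0.0321 and 0.0495). They share a description, and whether reads were split between them was not tested. The other CBF-type genes did not pass. DREB1B gene Rru01G050810, at 812 CPM in CK, had a log2 fold change of -0.50 ± 0.37 (SE, edgeR adjusted p = 0.349). That of DREB1A (Rru07G020080) was -0.45 ± 0.37, and that of DREB1B gene Rru03G021110 was 1.24 ± 0.98 (SE, edgeR adjusted p = 0.393 and 0.384). The list had 1 gene with its HA1 libraries above the other 6 (10%, beside 10.2% of all genes tested).

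The table has 2 other genes with the description DREB3. Rru02G006770 was read at 42.6, 54.3 and 41.6 CPM in the CK libraries, 71.2, 68.4 and 82.0 CPM in the HA1 libraries and 54.4, 72.5 and 56.9 CPM in the HA2 libraries. It rose from CK to HA1 by 0.68 ± 0.18 on the log2 scale (SE, edgeR adjusted p = 0.0334), a call also lost without CK replicate 3 or any 1 HA1 library. Its HA1 and HA2 libraries overlapped. Those of the described gene did not, but that gene was chosen for its high HA1 counts. Rru02G047610 was low, at 2.43 ± 1.32 CPM in CK and 1.01 ± 0.453 in HA1 (SD, n = 3), and did not pass.

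**Figure D3:**
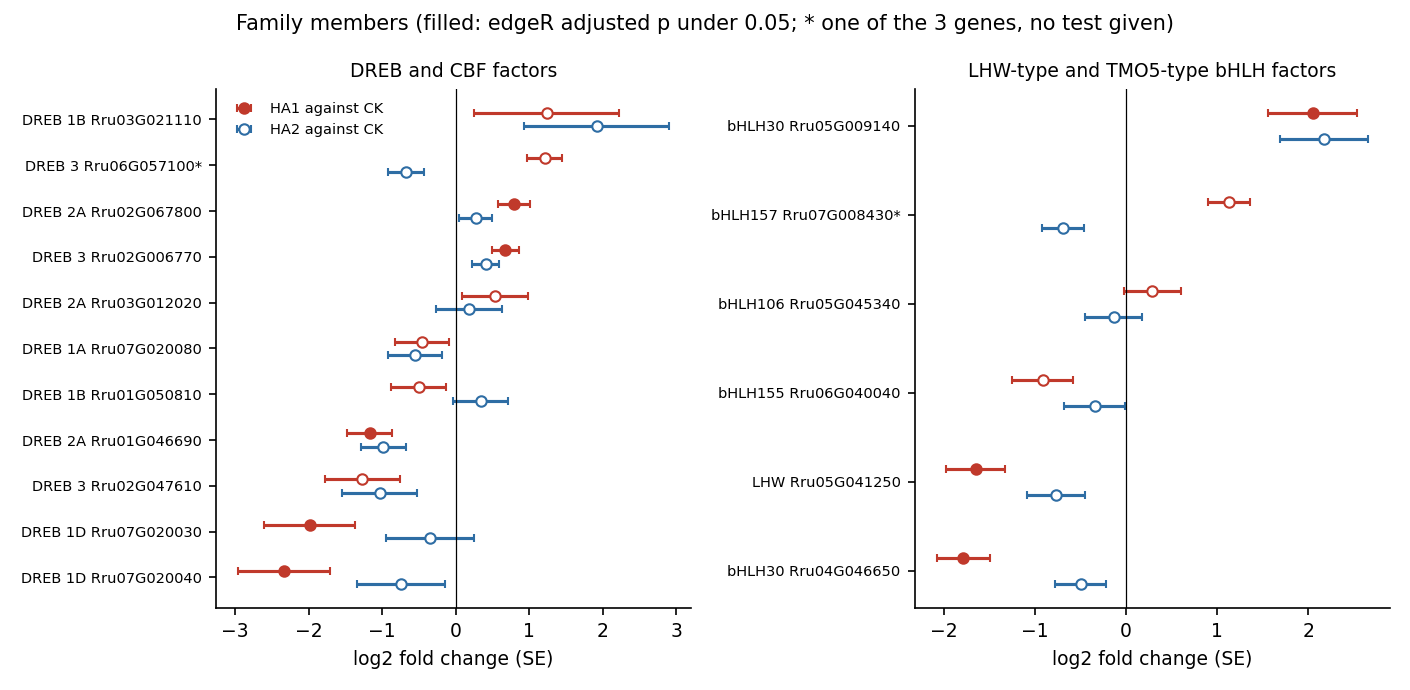
Log2 fold changes with SE (horizontal axis) of each tested DREB and CBF gene (left) and of the LHW-type and TMO5-type bHLH genes (right), for HA1 against CK in red and HA2 against CK in blue, with filled points for genes past the edgeR threshold and an asterisk for the described genes, for which no test is given. The described genes are right of 0 in HA1 and left of it in HA2, while LHW and a bHLH30 gene are left of 0 in both.

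Ethylene-responsive AP2 factors, the wider family of DREB3, had 77 of 112 genes tested, of which 11 rose, 10 fell and 56 did not pass (27.3% called, median log2 fold change 0.21). Under total count scaling, this median was -0.07. Those with the lowest p fell: CRL5 (Rru06G060500), named for a rice gene needed for crown roots, by 1.69 ± 0.23, the AP2-like gene Rru03G030430 by 1.47 ± 0.24, and ERF022 (Rru07G047950) by 2.98 ± 0.51 on the log2 scale (SE, edgeR adjusted p = 0.00912, 0.0106 and 0.0112). In this list 9 genes (11.7%) had their HA1 libraries above the other 6, beside 10.2% of all genes tested.

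Genes named for a dehydration or cold response, the class that DREB-type factors are known to regulate, had 40 of 58 tested, of which 5 rose, 4 fell and 31 did not pass (22.5% called, median -0.02). With total count scaling 4 were higher and 10 lower. The ERD7 genes Rru02G013990 and Rru02G007050 rose by 1.86 ± 0.27 and 2.42 ± 0.47 on the log2 scale, and ERD15 (Rru01G046860), a modulator of abscisic acid responses in Arabidopsis, fell by 2.50 ± 0.51 (SE, edgeR adjusted p = 0.00973, 0.0147 and 0.0158). The calls for Rru02G007050 and ERD15 were also lost without CK replicate 3 or HA1 replicate 2. In this list 3 genes (7.50%) had their HA1 libraries above the other 6, beside 10.2% of all genes tested.

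Cyclic nucleotide-gated channels other than the described CNGC1 gene had 56 of 98 tested, of which 7 rose, 5 fell and 44 did not pass. That share of 21.4% is near the 21.2% of all genes, and the median log2 fold change was 0.23. Scaled by total count, 4 were higher, 7 were lower and the median was -0.04. In this list 4 genes (7.14%) had their HA1 libraries above the other 6, beside 10.2% of all genes tested.

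The description CNGC1 is shared by 76 genes. Their sequences were not compared, so reads may have been split between any that are near-identical, and single values are uncertain. Of the other 75, 43 were tested, 32 were not, and 12 had 0 counts in every library. Of the 43 tested, 4 rose and 4 fell, where 10.9% of all genes tested rose and 10.3% fell. Log2 fold changes of these tested genes ran from -1.91 to 2.63 with a median of 0.22. Rru01G054350 rose by 1.57 ± 0.22 on the log2 scale, from 20.8 to 61.8 CPM, and stood at 33.1 CPM in HA2 (SE, edgeR adjusted p = 0.00973). The genes Rru01G054400 and Rru01G054390 fell by 1.43 ± 0.27 and 1.07 ± 0.23 on the log2 scale (SE, edgeR adjusted p = 0.0133 and 0.0182). Both calls were also lost without HA1 replicate 2, and the latter without CK replicate 3 or HA1 replicate 1.

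Genes that read or carry calcium, the ion that these channels admit, were counted in 3 lists. Genes named for calmodulin, the calcium sensor that binds the channels, had 61 of 69 tested, of which 8 rose, 11 fell and 42 did not pass (31.1% called, median 0.01). Calmodulin-2 (Rru03G003710) rose by 2.23 ± 0.27 on the log2 scale and CAMTA3 (Rru02G027530), a calmodulin-binding transcription factor, by 2.01 ± 0.29, while a calmodulin-lysine N-methyltransferase (Rru05G050370) fell by 0.99 ± 0.17 (SE, edgeR adjusted p = 0.00884, 0.00973 and 0.0119). The last call was also lost without CK replicate 3 or HA1 replicate 2. Under total count scaling, 7 were higher and 14 lower. In this list 5 genes (8.20%) had their HA1 libraries above the other 6, beside 10.2% of all genes tested.

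Calcium-dependent kinases with the CIPK kinases and their CBL sensors had 47 of 59 tested, of which 9 rose, 7 fell and 31 did not pass (34.0% called, median 0.26). With total count scaling 4 were higher, 11 were lower and the median was 0.00. Calcium-dependent protein kinase 10 (Rru07G003440) rose by 1.16 ± 0.21 and CIPK10 (Rru05G064620) by 1.08 ± 0.20, and CBL7 (Rru07G015430) fell by 0.92 ± 0.17 on the log2 scale (SE, edgeR adjusted p = 0.0123, 0.0128 and 0.0131). The kinase calls were also lost without CK replicate 3, and those of CIPK10 and CBL7 without HA1 replicate 2. In this list 8 genes (17.0%) had their HA1 libraries above the other 6, beside 10.2% of all genes tested.

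Other calcium channels and pumps had 105 of 155 tested, of which 18 rose, 6 fell and 81 did not pass (22.9% called, median 0.15). Scaled by total count, 11 were higher, 13 were lower and the median was -0.16. The plasma membrane calcium pump ACA8 (Rru04G012260) rose from 228 to 666 CPM, by 1.55 ± 0.23 on the log2 scale, and a CSC1-like channel (Rru02G013280) rose by 1.36 ± 0.21. MCA1 (Rru02G013630), a stretch-activated calcium channel in Arabidopsis, fell by 1.80 ± 0.23 (SE, edgeR adjusted p = 0.00982, 0.00992 and 0.00911). In this list 5 genes (4.76%) had their HA1 libraries above the other 6, beside 10.2% of all genes tested.

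Marker lists of tissues, drawn by word matches in descriptions, were counted beside these. The root list took in Scarecrow-like genes by name, and whether they mark root tissue was not tested. Of 49 root markers tested 9 rose and 10 fell (38.8% called, median 0.08), with ROOT HAIR SPECIFIC 17 (Rru06G032300) falling by 2.30 ± 0.45 and Scarecrow-like 14 genes going both ways, Rru05G058280 up by 1.02 ± 0.21 and Rru05G058490 down to 2.22 from 8.37 CPM (SE, edgeR adjusted p = 0.0147, 0.0170 and 0.0175). Of 32 green tissue markers tested 0 rose and 2 fell with edgeR, with a median of -0.67, and those were the chlorophyll-binding protein genes Rru07G034840 and Rru04G041480, by 1.53 ± 0.39 and 1.29 ± 0.39 on the log2 scale (SE, edgeR adjusted p = 0.0288 and 0.0459). All 5 of these marker calls were also lost without CK replicate 3 or HA1 replicate 2. Under total count scaling, 3 root markers were higher and 11 lower, and of the green tissue markers 0 were higher and 5 lower with a median of -0.97. The HA1 libraries lay above the other 6 for 4 root markers (8.16%) and for 0 green tissue markers, beside 10.2% of all genes tested.

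**Figure D4:**
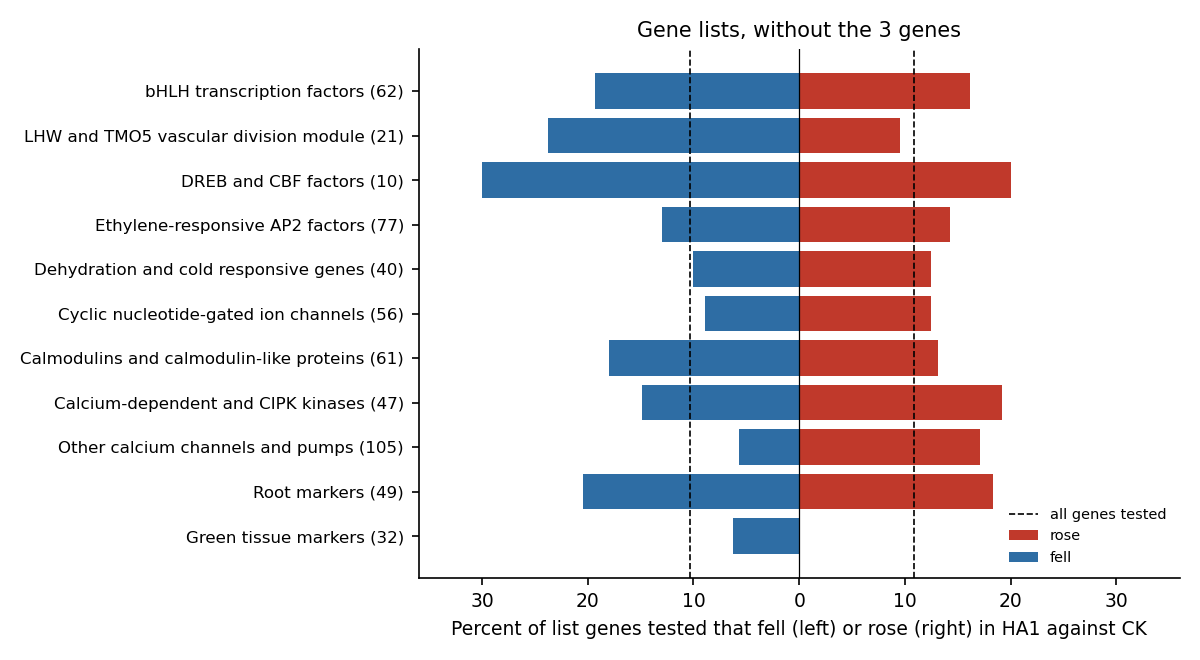
Percent of the tested genes of each list (number in brackets, without the 3 regulators) that fell (left) or rose (right) in HA1 against CK at an edgeR adjusted p under 0.05, with dashed lines at the 10.3% and 10.9% of all genes tested. Every list but the green tissue markers has genes in both directions, and the longest bars on either side are those of the DREB and CBF factors, at 2 and 3 of 10 genes.

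The genes whose levels most resembled each regulator were found by Pearson's r of log2 CPM over the 9 libraries, among 13724 genes with a mean of at least 1 CPM and a description that names a function. An r above 0.9 was reached by 51 genes (0.372%) for bHLH157, 44 (0.321%) for DREB3 and 283 (2.06%) for CNGC1. Since these genes were picked for a pattern that peaks in HA1, their values are a description. With group means removed, r for the 5 nearest genes named below was lower. It ran from 0.73 to 0.87 for bHLH157, from 0.61 to 0.87 for DREB3 and from 0.50 to 0.66 for CNGC1.

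Nearest to bHLH157 were the zinc finger protein WIP3 (Rru05G037520, r = 0.98), the DREB3 gene itself (0.97), a homologue of the tobacco immune receptor N (Rru06G003840, 0.97), the starch-phosphorylating alpha-glucan water dikinase 1 (Rru03G024180, 0.97) and a pentatricopeptide repeat protein (Rru01G020330, 0.97). WIP3 was read at 17.5, 22.4 and 15.9 CPM in the CK libraries, 65.1, 39.5 and 40.8 CPM in the HA1 libraries and 16.4, 7.77 and 5.94 CPM in the HA2 libraries. Its HA1 libraries were high and its CK and HA2 libraries overlapped. The dikinase had means of 6.92 ± 0.734, 11.0 ± 0.666 and 6.17 ± 0.677 CPM in CK, HA1 and HA2 (SD, n = 3).

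Nearest to DREB3 were nuclear intron maturase 3 (Rru02G037210, r = 0.98), which acts in splicing of mitochondrial introns, the bHLH157 gene (0.97), an F-box protein (Rru05G037810, 0.97), phosphoenolpyruvate carboxylase 4 (Rru02G013560, 0.96) and the same dikinase (0.95). The maturase had means of 3.46 ± 0.534, 6.49 ± 0.888 and 2.92 ± 0.240 CPM in CK, HA1 and HA2 (SD, n = 3). The carboxylase gene was low, with means of 0.995 ± 0.237, 1.39 ± 0.138 and 0.683 ± 0.0621 CPM (SD, n = 3). Its counts per library ran from 23 to 66. The F-box gene had overlapping CK and HA1 libraries, with means of 5.19 ± 0.907 and 7.28 ± 1.02 CPM (SD, n = 3).

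Nearest to CNGC1 were a DUF21 protein (Rru06G004250), WPP domain-interacting protein 2 (Rru05G066560), a protein induced by pathogen-associated molecular patterns, A70 (Rru06G061310), the glycosyltransferase UGT87A1 (Rru05G063770) and CYP84A1 (Rru02G014750), the ferulate hydroxylase that leads to syringyl lignin in Arabidopsis, each with r = 0.97. UGT87A1 was read at 5.39, 6.24 and 5.69 CPM in the CK libraries, 25.3, 19.1 and 25.0 CPM in the HA1 libraries and 11.5, 7.71 and 7.33 CPM in the HA2 libraries. Its groups did not overlap, with HA2 between CK and HA1. CYP84A1 had means of 157 ± 13.7, 397 ± 63.4 and 201 ± 37.2 CPM and A70 of 41.7 ± 4.90, 137 ± 9.92 and 52.5 ± 17.2 CPM in CK, HA1 and HA2 (SD, n = 3).

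**Figure D5:**
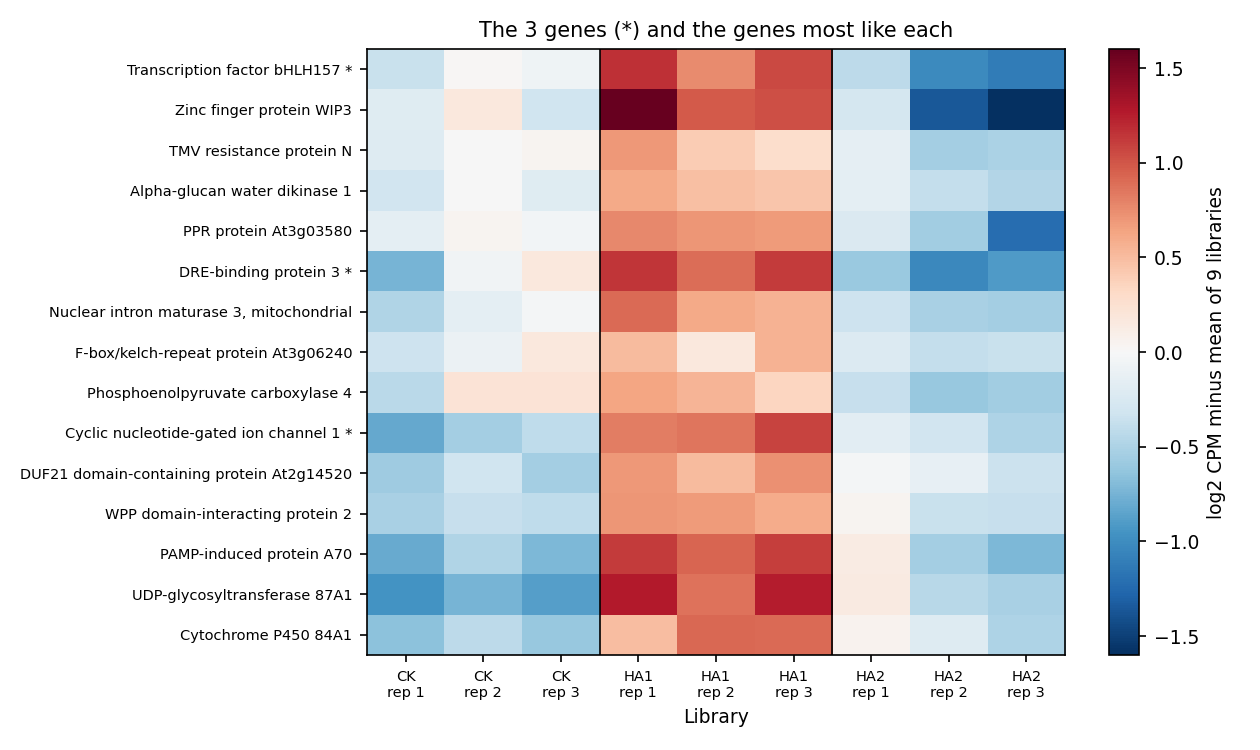
Log2 CPM minus the mean of the 9 libraries (colour) for the 3 regulators (asterisk) and the genes most like each, with 1 column per library. HA1 columns are red in every row, HA2 is the bluest group in the rows of bHLH157 and DREB3, and CK is the bluest in the rows of CNGC1 and its nearest genes.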

How the data were processed

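Polyadenylated root RNA was sequenced as paired reads of 150 bases, per the labels' protocols. For each gene the deposited table gives a raw count per library, FPKM, and the authors' DESeq2 log2 fold changes with adjusted p-values, per the file headers. How reads were aligned and counted, on which build and with what strand setting, is not given in the sources used here, so genes that overlap or are near-identical are uncertain. Of 47983 genes, 13758 had 0 counts throughout. Names are the Swiss-Prot descriptions in the table (23524 genes), and 0 gene IDs matched the RefSeq table.

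Counts were analysed in R 4.3.3 with edgeR 4.0.16: filterByExpr on group, TMM scaling, and a quasi-likelihood fit with 1 mean per group over all 9 libraries, two-sided, adjusted by Benjamini-Hochberg over 25260 genes at 0.05. The SE was taken as |log2 fold change| divided by the root of F. The deposited FPKM values were used for levels per length only. DESeq2 1.42.0 served as an alternative. Python 3.11.15, pandas 2.3.3 and matplotlib 3.10.9 prepared tables and figures. The fit was tested on simulated counts with 200 genes raised 2-fold or 4-fold in each comparison. It called 4% of the 2-fold changes in HA1 against CK, 5% in HA2 against CK and 4% in HA2 against HA1. Of the 4-fold changes it called 59%, 66% and 57%. A gene that did not pass is therefore not shown to be unchanged. The real HA1 against CK comparison had 5355 calls, so the shares recovered there may differ.

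The 3 regulators, the 11 gene lists (word matches in descriptions) and the tests were chosen with earlier results of these data known. Named genes were the 3 regulators, per list the 3 genes with the lowest p in HA1 against CK among those that passed, genes with the same description as a regulator, and the 5 genes with the highest r over 9 libraries (log2 CPM, prior count 2). The other LHW, TMO5-type, cytokinin, DREB and CBF genes named were chosen after their values were seen. Replicate numbers were not used as pairs: of 9 same-number pairs, deviations from group means correlated above 0.1 only in the 3 of CK with HA2 (0.12, 0.11 and 0.32). Replicate 3 of HA1 and of HA2 deviated in opposite directions (-0.297). Intervals were not computed, and precision is given as SD or SE over libraries.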

Additional observations from a re-analysis of the deposited data

How the results depend on the processing

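Of 144 log2 fold changes of the 3 regulators under 16 other settings, 140 moved by less than 1 SD between replicates in the same direction. The exceptions all came from total count scaling, added after the data were seen: from CK to HA1 bHLH157 was 0.85 and CNGC1 1.20, and from CK to HA2 bHLH157 was -0.99 and CNGC1 reversed to -0.0476. Over all settings the regulators' log2 fold changes from CK to HA1 ran from 0.85 to 1.24 (bHLH157), 0.92 to 1.38 (DREB3) and 1.20 to 1.56 (CNGC1). Total count scaling also gave 1705 genes with HA1 above the other 6 libraries in place of 2585, 3 DREB and CBF calls in place of 5, and 14 dehydration and cold calls in place of 9. Leaving out each library in turn gave 0 to 7003 genes called in HA1 against CK, with 0 to 29 bHLH factors (22 with all libraries), 0 to 5 DREB and CBF factors, 0 to 14 cyclic nucleotide-gated channels (12 with all) and 0 to 10 dehydration and cold genes. The lowest value came without CK replicate 1, and without CK replicate 3 the count of all genes was 666. For HA2 against CK, where 1 gene was called, leaving out each library gave 0 to 1834 genes (1834 without HA2 replicate 3 and 1421 without CK replicate 2), DESeq2 gave 2181, and the filter of at least 1 CPM in 3 libraries, the fit of only the 6 libraries and total count scaling each gave 0. The replicate block gave 0 genes for HA2 against CK and 5206 for HA1 against CK. It changed no other call counted here by more than 1.5 times. For HA2 against HA1 DESeq2 gave 944 genes in place of 0, and leaving out each library gave 0. The cause of these shifts was not tested. Without HA2 replicate 3, which lay near CK, bHLH157, DREB3 and CNGC1 differed from CK by -0.56, -0.64 and 0.34. Depth did not limit the regulators, whose lowest count in a library was 186.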
